A study of Emberiza melanocephala with 12 samples.

Results

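Immune cell and cytokine genes were followed in the liver of blackheaded buntings (Emberiza melanocephala), a songbird that migrates at night. A gene was included when a table of the study names it with a symbol for a CD antigen, an interleukin or its receptor, an interferon regulatory factor (IRF), a Toll-like receptor (TLR), a member of the tumor necrosis factor (TNF) families, a chemokine or its receptor, or for PTPRC, LCP1 or LSP1, and when its FPKM (a level that is scaled to the length of the transcript and the size of the library) was above 0.1 in at least 10 of the 12 libraries. Of 55 names that matched, 47 passed, among 9566 genes that passed the same filter. All of them have their names from a table of genes called cyclic over the day in these same libraries. LSP1 stands also in a table of genes chosen by their difference between the states, and no member is named alone in the copy of that table used here. The 8 names that did not pass were CD28, listed at 0 in all 12 libraries, and IL12B, IL20RA, IL8-2, TNFAIP1, TNFRSF8-1, TNFSF8 and TNFSF15.

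The liver holds resident macrophages (Kupffer cells), lymphocytes and blood leukocytes among its hepatocytes, endothelium and stellate cells. PTPRC, LCP1 and LSP1 are made by most leukocytes, whereas tetraspanins such as CD81 and CD82, and receptors such as IL1R1 and IL13RA1, are also made by cells of other kinds. Cytokines bind paired receptor chains, and the signal passes through JAK kinases and STAT factors, or, for the interleukin-1, Toll-like and TNF receptors, through adaptors to NF-kB and the IRFs. The roles given here are known mainly from human and mouse.

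All birds were adult males caught from the wild and kept singly in cages. The migratory (M) birds had been held on short days and were then photostimulated with long days until each had shown a week of nocturnal restlessness (Zugunruhe). The non-migratory (nM) birds were photorefractory and stayed on long days. Both states were therefore on long days when the livers were taken, with 6 birds in each state and 1 bird at each of 6 zeitgeber times (ZT1, ZT5, ZT9, ZT13, ZT17 and ZT21, in hours since the lights came on), of which ZT17 and ZT21 were in darkness. The 6 times stood as the replicates of a state, so every SD holds both the time of day and the difference between birds, and the 2 cannot be told apart. In whole liver, fewer cells of a type and less RNA per cell cannot be told apart either.

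The M ZT17 library stood apart from the rest before any result. Its FPKM values summed to 6988410, against 1520194 to 2793013 in the other 11 libraries, and its median rank correlation with the others was 0.703 against at least 0.895. It listed 645 of the 9566 genes at 0, with 9 to 257 in the others. Hepatocyte genes were high throughout, and the summed level of 10 of them was 16648 to 30106 FPKM in M and 14462 to 95837 FPKM in nM. The top nM sum was that of ZT1, where FGB and FGG stood at 26712 and 42162 FPKM. The next nM sum was 37384 FPKM, at ZT9. ALB, the albumin gene, was listed at 0 in 4 libraries and at 17300.2 to 39835 FPKM in the other 8, so a listed 0 is not read here as absence. The files used here hold no read counts. By the read totals that the study lists, the nM ZT13 library had the fewest reads and that of nM ZT5 the most, but the number of reads behind a single value is not known here.

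The levels of the immune genes were mostly low. Their median level was 5.89 FPKM, against 13.4 FPKM over all genes tested. Of the 47 genes, 6 had a mean under 1 FPKM, 24 lay between 1 and 10, 13 between 10 and 100, and 4 above 100. The 4 highest, CD81, CD164, CD36 and LSP1, include only LSP1 as a gene named for leukocytes. There were 32 genes above 0.1 FPKM in all 12 libraries, and 15 listed at 0 in at least 1.

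The comparison of M with nM asked whether the immune genes of the liver differed between the migratory and the non-migratory state. LSP1, a leukocyte protein that binds F-actin, was higher in M, and CD59, a membrane protein that blocks the membrane attack complex of complement, was lower. None of the other 45 genes passed (limma on log2(FPKM + 1), called where the false discovery rate was below 0.1 and the log2 fold change beyond 0.1 in either direction). The call was thus made for 4.26% of the immune genes, against 9.32% of all genes tested, with 2.84% higher and 6.48% lower in M. LSP1 enters these counts as a description only, because a table of state differences in these libraries names it. The M and nM values did not overlap in LSP1 and CD59 alone, which is 2 of 47 against 4.18% of all genes (1 higher in M, against 0.784%, and 1 lower, against 3.4%). At an unadjusted p under 0.05 there were 7 immune genes (14.9%, against 25.2% of all genes). The median log2 fold change was -0.08 over the 47 genes and -0.08 over all genes, with 21 above 0 and 26 below. Without the M ZT1 library, 10 immune genes passed, against 20.7% of all genes, without the nM ZT5 library, 5 did, against 16.5%, and without the M ZT17 library, 2 did, against 12.1%. The 10 were LSP1, CD59, IL7, IL13RA1, TLR3, TNFRSF19, CD2AP, CD14, CD40 and IRF10, and the 5 were LSP1, CD59, IL7, IL21R and TLR3.

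**Figure D1:**
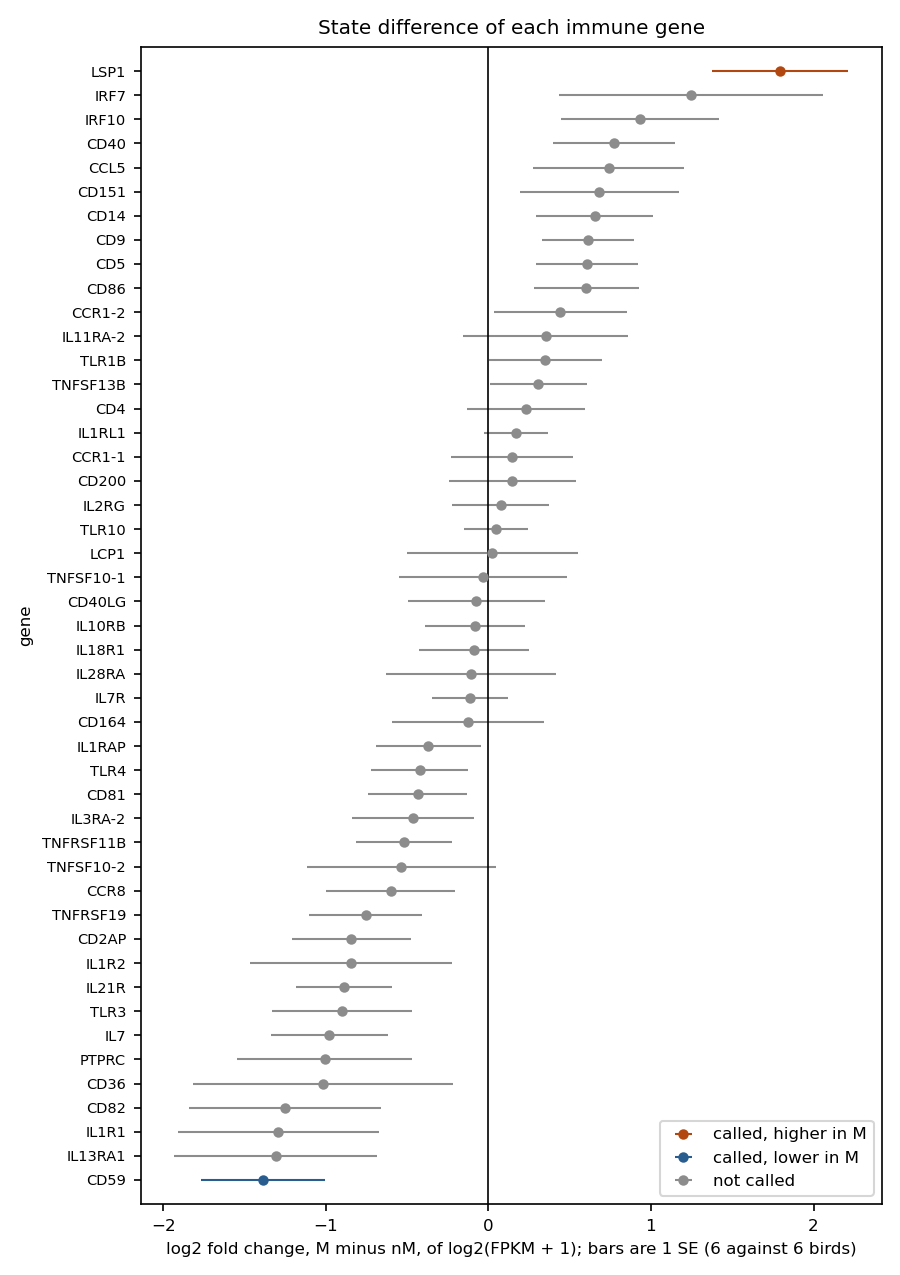
The horizontal axis is the log2 fold change of each of the 47 genes, M minus nM, on the log2(FPKM + 1) scale, and each bar is 1 SE from 6 birds in each state. LSP1 at the top (1.79) and CD59 at the bottom (-1.39) are coloured as called, and the other genes lie between 1.25 (IRF7) and -1.31 (IL13RA1).

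LSP1 (ENSTGUG00000009388) had the highest mean of PTPRC, LCP1 and LSP1 in both states. In M its levels at ZT1, ZT5, ZT9, ZT13, ZT17 and ZT21 were 94.6, 157, 272, 138, 429 and 94.5 FPKM. In nM they were 21.5, 89.9, 52.1, 68.5, 36.1 and 47.2 FPKM at the same times. Each M bird thus exceeded each nM bird, although the lowest M value and the highest nM value were close. The means were 197 ± 131 FPKM (SD, n = 6) in M and 52.6 ± 24.1 FPKM (SD, n = 6) in nM, a ratio of 3.76, and the log2 fold change was 1.79 (SE 0.42). Because a table of state differences in these libraries names LSP1, its difference stands as a description, and no p is given. The log2 fold change was 1.53 without the M ZT17 library, where LSP1 was highest, and 1.57 without the nM ZT1 library, where it was lowest.

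PTPRC and LCP1 did not follow LSP1. PTPRC (ENSTGUG00000004389) encodes CD45, a receptor phosphatase of leukocytes. Its levels in M were 14.0, 4.71, 11.9, 14.4, 0.708 and 14.6 FPKM from ZT1 to ZT21. In nM they were 15.9, 7.16, 29.3, 16.6, 30.6 and 11.8 FPKM. The M value of ZT17 lay far under all the others, and the remaining 5 M values overlapped the nM values. On the log2 scale, M minus nM was -1.01 for PTPRC (SE 0.54, adjusted p = 0.253 from limma), and it was -0.53 without the M ZT17 library.

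LCP1 (ENSTGUG00000012284), the actin-bundling protein L-plastin, stood in M at 58.6, 26.7, 51.9, 76.2, 6.32 and 79.4 FPKM. In nM it stood at 27.7, 21.5, 73.4, 40.5, 45.0 and 38.0 FPKM. The groups overlapped widely, with the M birds of ZT13 and ZT21 above every nM bird and the M bird of ZT17 below every nM bird. For LCP1 the log2 fold change was 0.03 (SE 0.53, adjusted p = 0.980 from limma). LCP1 and PTPRC shared their lowest time in both states, ZT17 in M (as in 43.1% of all genes) and ZT5 in nM (as in 31.6%).

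Of 17 genes listed as markers of leukocytes in general, 9 were tested, and LSP1 alone was called, with a median log2 fold change of 0.09. Without LSP1, the summed level of the other 8 was 195 to 502 FPKM in M (median 292) and 146 to 349 FPKM in nM (median 182). In the M ZT17 library the markers split. LSP1, RAC2 and ARHGDIB were at their highest M level there (429, 300.0 and 149.7 FPKM, against at most 272, 86.0 and 98.4 in the other M libraries), while PTPRC, LCP1, DOCK2, INPP5D and LAPTM5 were at their lowest. What set that library apart was not tested.

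Among the surface molecules of T cells, 4 genes were members and 0 were called. CD4, the co-receptor of helper T cells, ran from 3.08 to 11.5 FPKM in M and from 3.34 to 12.99 FPKM in nM, so that the ranges nearly coincided. CD5, a T cell glycoprotein, was low, from 0.167 to 3.50 FPKM in M and from 0 to 0.993 FPKM in nM (log2 fold change 0.61, adjusted p = 0.236 from limma). CD40LG, the ligand by which T cells act on B cells and macrophages, was highest at ZT17 in both states, at 8.72 FPKM in M and 13.7 FPKM in nM. Of all genes, 36.5% were highest at that time in M and 20.6% in nM. CD200, a glycoprotein that restrains myeloid cells, spanned 2.19 to 14.2 FPKM in M and 5.30 to 15.4 FPKM in nM. Among 23 T and NK cell markers, 8 were tested and 0 were called (median log2 fold change 0.17). GZMA, a granzyme of cytotoxic cells, had 30.7 ± 8.13 FPKM in M and 20.2 ± 9.27 FPKM in nM (SD, n = 6 each; adjusted p = 0.181 from limma). The chains of the T cell receptor complex CD3D, CD3E and CD3G and the B cell genes CD79A and CD79B carry no name in the tables used and were not analysed here.

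The 3 molecules of antigen-presenting cells had log2 fold changes above 0, and 0 were called. CD40, the receptor of CD40LG, had 11.4 ± 6.39 FPKM in M and 5.84 ± 2.27 FPKM in nM (SD, n = 6 each; log2 fold change 0.77, adjusted p = 0.213 from limma). CD14, which presents bacterial lipopolysaccharide to TLR4, had 0.533 to 4.72 FPKM in M (median 2.81) and 0 to 1.93 FPKM in nM (median 1.47; log2 fold change 0.65, adjusted p = 0.265 from limma). CD86, a costimulator of T cells, had 1.18 to 3.42 FPKM in M (median 1.68) and 0 to 3.09 FPKM in nM (median 0.608; log2 fold change 0.60, adjusted p = 0.255 from limma). In all 3 the ranges of M and nM overlapped. Of 18 macrophage and Kupffer cell markers, 8 were tested and 0 were called, with CSF1R called without the M ZT17 library and CD14 without that of ZT1. Their median log2 fold change was 0.52, with CSF1R, the receptor of the macrophage growth factor, at 32.8 ± 11.3 FPKM in M and 18.1 ± 11.1 FPKM in nM (SD, n = 6 each; adjusted p = 0.185 from limma). On the log2 scale, single markers of the 8 ranged from -0.42 (TLR4) to 0.90 (CSF1R), with VSIG4 at 0.13 and LY86 at 0.14. Their summed level was 150 to 340 FPKM in M (median 290.4) and 161 to 382 FPKM in nM (median 201).

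The membrane proteins with CD names that many cell types make included the 3 most abundant members. CD59 (ENSTGUG00000005592) was the called gene among them. In M it stood at 5.02, 4.78, 3.59, 3.10, 0.565 and 3.10 FPKM from ZT1 to ZT21. In nM it stood at 7.22, 6.97, 10.6, 24.3, 9.64 and 5.53 FPKM. Each nM bird exceeded each M bird, and in nM the bird of ZT13 was far above the rest. The means were 3.36 ± 1.60 FPKM in M and 10.7 ± 6.90 FPKM in nM (SD, n = 6 each), 3.19 times higher in nM, and the log2 fold change was -1.39 (SE 0.38, adjusted p = 0.0590 from limma). The exact rank sum test (two-sided permutation) gave p = 0.00216, the smallest that 6 against 6 allow, and 0.0518 after adjustment over all genes tested. With 1 library left out the log2 fold change stayed between -1.52 and -1.11. The call was lost, at adjusted p values from 0.1001 to 0.1205 (limma), without the M library at ZT5 or ZT13 or the nM library at ZT9, ZT13 or ZT17. In these fits 171 to 348 of all genes were lower in M, against 620 in the main comparison. The call of CD59 was also lost with FPKM rescaled to equal totals (adjusted p = 0.147 from limma), where 3.13% of all genes were called.

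CD82 (ENSTGUG00000010270), a tetraspanin that organises receptors in the membrane, stood in M at 61.1, 33.8, 44.3, 34.1, 2.05 and 41.8 FPKM. In nM it stood at 55.6, 43.3, 77.6, 88.1, 86.4 and 52.1 FPKM. The nM bird was higher at all times but ZT1, and the ranges overlapped. CD82 had -1.25 as its log2 fold change (SE 0.59, adjusted p = 0.204 from limma), and -0.61 without the M ZT17 library. The exact permutation test gave p = 0.0260 (two-sided, 0.132 after adjustment over all genes tested).

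CD81 (ENSTGUG00000009259), another tetraspanin, had the highest level of all 47 genes. Its M values were 1350.1, 607, 954, 754, 1619.7 and 857 FPKM. Its nM values were 2314, 960.1, 1329, 832, 1477 and 1372 FPKM. The groups overlapped, and the log2 fold change was -0.43 (SE 0.30, adjusted p = 0.363 from limma).

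CD164 (ENSTGUG00000012105), a sialomucin of endosomes and the cell surface, had M values of 381, 188, 349.5, 310.4, 50.8 and 373 FPKM. Its nM values were 432, 329, 304, 164, 163 and 216 FPKM. The groups overlapped apart from the M bird of ZT17, which was below all the others. On the log2 scale, M minus nM was -0.12 for CD164 (SE 0.47, adjusted p = 0.878 from limma), and without that library it was 0.31, with the sign turned.

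CD36 (ENSTGUG00000002619), a scavenger receptor that takes up long-chain fatty acids, stood in M at 445, 238, 256, 134, 5.50 and 149 FPKM. In nM it stood at 122, 384, 240.1, 369, 266 and 220.1 FPKM. At ZT1 the M bird was the highest of its state and the nM bird the lowest of its own. For CD36 the log2 fold change was -1.02 (SE 0.80, adjusted p = 0.414 from limma), and -0.17 without the M ZT17 library.

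The other 3 proteins of this kind differed in direction. CD9 and CD151 are tetraspanins. CD9 was higher in M at all 6 times, with 29.4 ± 8.59 against 19.3 ± 6.92 FPKM (SD, n = 6 each; log2 fold change 0.61, adjusted p = 0.192 from limma). CD151 stood at a log2 fold change of 0.68 (adjusted p = 0.370 from limma), and its nM bird of ZT5 had 27.1 FPKM where the other nM birds had at most 7.92. CD2AP, an adaptor between membrane receptors and actin, had 16.3 ± 6.92 against 27.6 ± 7.56 FPKM (SD, n = 6 each; log2 fold change -0.84, adjusted p = 0.175 from limma).

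Only 2 secreted ligands outside the TNF family were members. IL7, a growth factor of lymphocytes, had 9.32 ± 4.41 FPKM in M and 17.8 ± 4.85 FPKM in nM (SD, n = 6 each), a ratio of 1.91 in favour of nM. Its lowest, median and highest values were 2.13, 9.09 and 15.7 FPKM in M and 9.64, 18.3 and 23.4 FPKM in nM, so the ranges overlapped. IL7 had -0.98 as its log2 fold change (SE 0.36, adjusted p = 0.127 from limma), and the exact permutation test gave p = 0.00866 (two-sided, 0.0801 after adjustment over all genes tested). CCL5, a chemokine that draws T cells and monocytes, ran from 13.2 to 104 FPKM in M and from 12.2 to 37.6 FPKM in nM (log2 fold change 0.74, adjusted p = 0.315 from limma). It was highest at ZT17 in both states, as were 36.5% of all genes in M and 20.6% in nM.

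Receptors of CCL5 and other chemokines were low. CCR1 has 2 gene models in the zebra finch annotation, and reads of such near copies may have been shared between them by the authors' counting. CCR1-1 (ENSTGUG00000004507) stood in M at 1.90, 2.54, 3.30, 2.16, 0 and 3.63 FPKM, and in nM at 0.657, 2.38, 1.86, 3.78, 1.36 and 0.931 FPKM. CCR1-2 (ENSTGUG00000004511) stood in M at 2.35, 1.56, 2.39, 5.28, 0 and 4.15 FPKM, and in nM at 0.371, 2.04, 1.87, 2.66, 0.929 and 0.768 FPKM. Both copies were listed at 0 in the M ZT17 library and had their lowest nM value at ZT1 and their highest at ZT13. CCR1-1 was above CCR1-2 in 7 libraries and below it in 4, and their log2 fold changes were 0.15 and 0.44 (adjusted p = 0.815 and 0.489 from limma). CCR8, a receptor of T cells and monocytes, was also listed at 0 in the M ZT17 library (log2 fold change -0.60, adjusted p = 0.338 from limma).

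Of the receptors of the common gamma chain family and IL3RA-2, a chain of the interleukin-3 receptor, 0 of 4 were called. IL21R, the receptor chain for a T cell cytokine, was higher in nM at all 6 times. Its lowest, median and highest values were 5.43, 9.23 and 10.5 FPKM in M and 9.95, 15.2 and 34.0 FPKM in nM. Of the genes that were not called it came closest by limma, with a log2 fold change of -0.89 (SE 0.30, adjusted p = 0.101 from limma). The exact permutation test gave p = 0.00866 (two-sided, 0.0801 after adjustment over all genes tested). That adjusted value, the same as for IL7, lay under 0.1, but calls were made by limma alone. IL2RG, the common gamma chain itself, had 10.8 ± 3.40 FPKM in M and 10.5 ± 4.49 FPKM in nM (SD, n = 6 each), with log2 fold changes from -0.08 to 0.23 when single libraries were left out. IL7R, which pairs with it to bind IL7, lay between 0 and 1.39 FPKM and stood at a log2 fold change of -0.11 (adjusted p = 0.773 from limma). IL3RA-2 stood at a log2 fold change of -0.46 (adjusted p = 0.427 from limma).

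In the interleukin-1 receptor family the nM bird of ZT1 had the highest value of all 12 in 3 genes, IL1R1, IL1R2 and IL1RAP. IL1R1 (ENSTGUG00000009881), the receptor that signals, stood in M at 82.0, 64.2, 57.2, 44.0, 7.31 and 40.4 FPKM. In nM it stood at 486, 78.1, 45.3, 68.5, 59.0 and 139.7 FPKM. The nM birds of ZT1 and ZT21 lay above every M bird, and that of ZT1 was 3.48 times the next nM bird. The M bird of ZT17 lay below every nM bird, and the remaining values of the states overlapped. On the log2 scale, M minus nM was -1.29 for IL1R1 (SE 0.62, adjusted p = 0.207 from limma), and -0.83 without the M ZT17 library or -0.84 without the nM ZT1 library. IL1R2, the decoy receptor that binds interleukin-1 without signalling, had 49.2 FPKM in the nM bird of ZT1, 15.0 times the next nM bird (3.29 FPKM), and 0.839 to 2.81 FPKM in M. IL1RAP, the accessory chain of IL1R1, was higher in nM at all 6 times but by little, from 0.301 to 3.85 FPKM in M and from 1.10 to 4.64 FPKM in nM, the highest again at ZT1. IL1RL1 and IL18R1, the receptors of interleukin-33 and interleukin-18, had means under 1 FPKM in both states and their highest nM values at ZT13. Over the 5 genes the median log2 fold change was -0.37, and 0 were called.

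IL13RA1 (ENSTGUG00000003228), which joins IL4R in the receptor for interleukin-4 and interleukin-13, had M values of 76.1, 20.3, 15.2, 14.1, 2.84 and 16.4 FPKM. Its nM values were 166, 21.4, 31.7, 33.2, 25.4 and 54.7 FPKM. The nM bird was higher at all 6 times, and in both states the bird of ZT1 was far above the rest, so that the ranges overlapped. For IL13RA1 the log2 fold change was -1.31 (SE 0.62, adjusted p = 0.207 from limma), and the exact permutation test gave p = 0.0411 (two-sided, 0.164 after adjustment over all genes tested). A fit with time of day as a replicate block called it lower in M (adjusted p = 0.0775 from limma), where 9.7% of all genes were called. Higher values in nM at all 6 times were found for 4 of the 47 genes (CD59, IL13RA1, IL1RAP and IL21R), against 13.5% of all genes, and higher values in M for 2 (CD9 and LSP1), against 6.91%.

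The remaining receptor chains of this group were not called. IL10RB, shared by the interleukin-10 family, had 2.39 ± 1.40 FPKM in M and 2.54 ± 1.32 FPKM in nM (SD, n = 6 each). IL28RA, which binds interferon lambda, ran from 0.992 to 7.90 FPKM in M and from 1.00 to 11.7 FPKM in nM. IL11RA-2, a chain that binds interleukin-11, was at 15.9 FPKM in the M ZT17 library, against 1.01 to 3.58 FPKM in the other M libraries, and was listed at 0 in the nM ZT13 library.

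Among ligands of the TNF family, TNFSF10 (TRAIL, which can trigger cell death through its receptors) has 2 gene models, and reads may again have been shared between them. TNFSF10-1 (ENSTGUG00000005394) stood in M at 3.39, 5.56, 2.15, 2.03, 27.4 and 7.47 FPKM, and in nM at 3.78, 2.62, 4.78, 4.65, 14.8 and 7.47 FPKM. It was highest at ZT17 in both states, the time at which 36.5% of all genes were highest in M and 20.6% in nM. TNFSF10-2 (ENSTGUG00000010819) stood in M at 4.44, 2.71, 1.91, 0.817, 0.661 and 5.07 FPKM, and in nM at 0.654, 1.45, 1.07, 4.72, 11.4 and 15.6 FPKM. In the M ZT17 library the pair parted, the first copy at its highest M level and the second at its lowest. Their log2 fold changes were -0.03 and -0.53 (adjusted p = 0.974 and 0.561 from limma). TNFSF13B (BAFF, a survival factor of B cells) was low, at 0 to 1.79 FPKM in M (median 1.24) and 0.293 to 1.30 FPKM in nM (median 0.370).

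Of the TNF receptors, TNFRSF19 had 0 to 3.18 FPKM in M (median 1.22) and 1.27 to 4.88 FPKM in nM (median 2.61; log2 fold change -0.75, adjusted p = 0.196 from limma). TNFRSF11B (osteoprotegerin, a soluble decoy receptor) had 1.02 ± 0.607 against 1.98 ± 1.10 FPKM (SD, n = 6 each; log2 fold change -0.52, adjusted p = 0.280 from limma). Both had their highest nM value at ZT9 and their lowest at ZT21.

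TLR3, the sensor of double-stranded RNA, was the highest of the 4 Toll-like receptors, at 4.51 to 25.0 FPKM in M (median 10.9) and 6.33 to 34.2 FPKM in nM (median 26.3). Its log2 fold change was -0.90 (SE 0.43, adjusted p = 0.207 from limma). TLR4, the receptor of lipopolysaccharide, was listed at 0 in the M ZT17 library and had 1.06 to 2.40 FPKM in the other M birds, against 0.587 to 2.97 FPKM in nM. TLR1B, which senses bacterial lipopeptides, had a log2 fold change of 0.35, and TLR10 did not exceed 0.612 FPKM in any library.

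The 2 interferon regulatory factors had the largest log2 fold changes above 0 after LSP1, and neither passed. IRF7 (ENSTGUG00000009836), a driver of type I interferon genes, stood in M at 0.504, 8.83, 5.40, 7.92, 28.4 and 4.98 FPKM. In nM it stood at 29.6, 2.12, 1.08, 0, 0 and 3.21 FPKM. The M bird was higher at each time but ZT1, where the order was reversed and the nM bird had the highest value of all 12. IRF7 had 1.25 as its log2 fold change (SE 0.81, adjusted p = 0.333 from limma), 0.84 without the M ZT17 library and 1.91 without the nM ZT1 library. IRF10, a member of the family known from chicken, was highest in the M ZT17 library at 26.9 FPKM and otherwise lay between 1.39 and 9.50 FPKM (log2 fold change 0.93, adjusted p = 0.241 from limma).

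**Figure D2:**
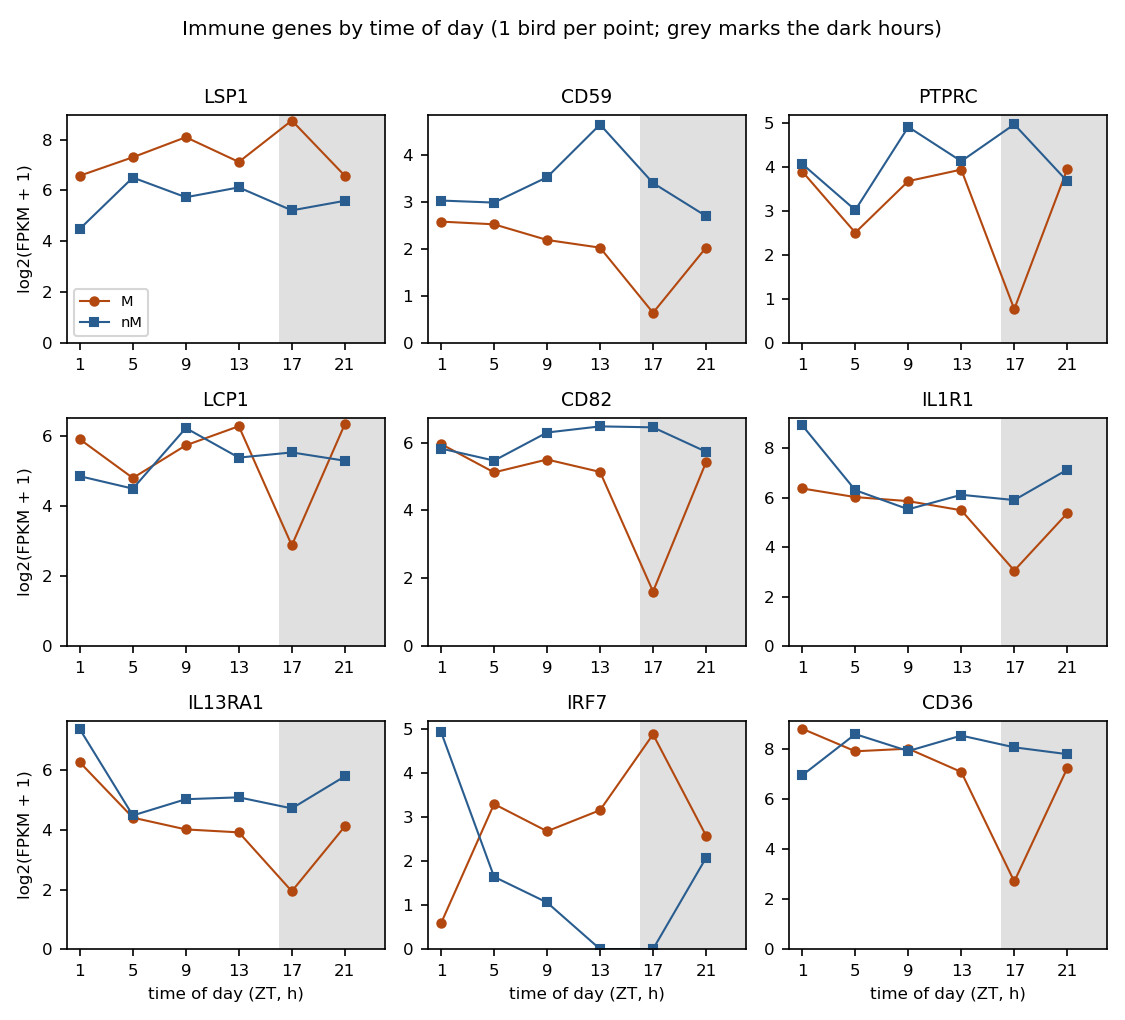
Each panel shows the level of a gene as log2(FPKM + 1) against time of day (ZT, h), with 1 bird per point, circles for M, squares for nM and grey for the dark hours. LSP1 and CD59 keep the states apart at all 6 times, PTPRC, LCP1, CD82 and CD36 dip at ZT17 in M, and IL1R1, IL13RA1 and IRF7 peak at ZT1 in nM.

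Time of day is given as a description, since each time had 1 bird per state and the genes were named through a table of genes called cyclic in these libraries. In M, 14 of the 47 genes were highest at ZT1 (all genes: 25.4%), 15 at ZT17 (36.5%) and 12 at ZT21 (8.5%). Those highest at ZT21 included PTPRC, LCP1, CD4, CCR1-1, CCR8 and IL21R. Lowest in M at ZT17 were 23 genes (43.1% of all genes) and at ZT1 11 genes (22.9%), among them CD40, CD40LG, CCL5, IL2RG, IRF7 and IRF10. In nM, 14 genes were highest at ZT9 (10% of all genes), among them LCP1, CD4, CD5, IL2RG, IL7, IL7R, TLR4 and TNFSF13B. At ZT1 in nM 12 were highest (25.9%), and at ZT5 14 were lowest (31.6%), among them PTPRC, LCP1, CD4, IL7, TLR3 and TNFSF13B. In PTPRC, LCP1, CD4, CD40LG, IL2RG and CCL5, a group picked after its values were seen, the top nM birds were those of ZT9 and ZT17 (6 of 47 genes, 5.83% of all genes). At matched times the M bird was higher in 18 of the 47 genes at ZT1 (all genes: 37.7%), 24 at ZT5 (54.4%), 17 at ZT9 (48.0%), 24 at ZT13 (48.9%), 17 at ZT17 (43.0%) and 29 at ZT21 (45.7%).

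**Figure D3:**
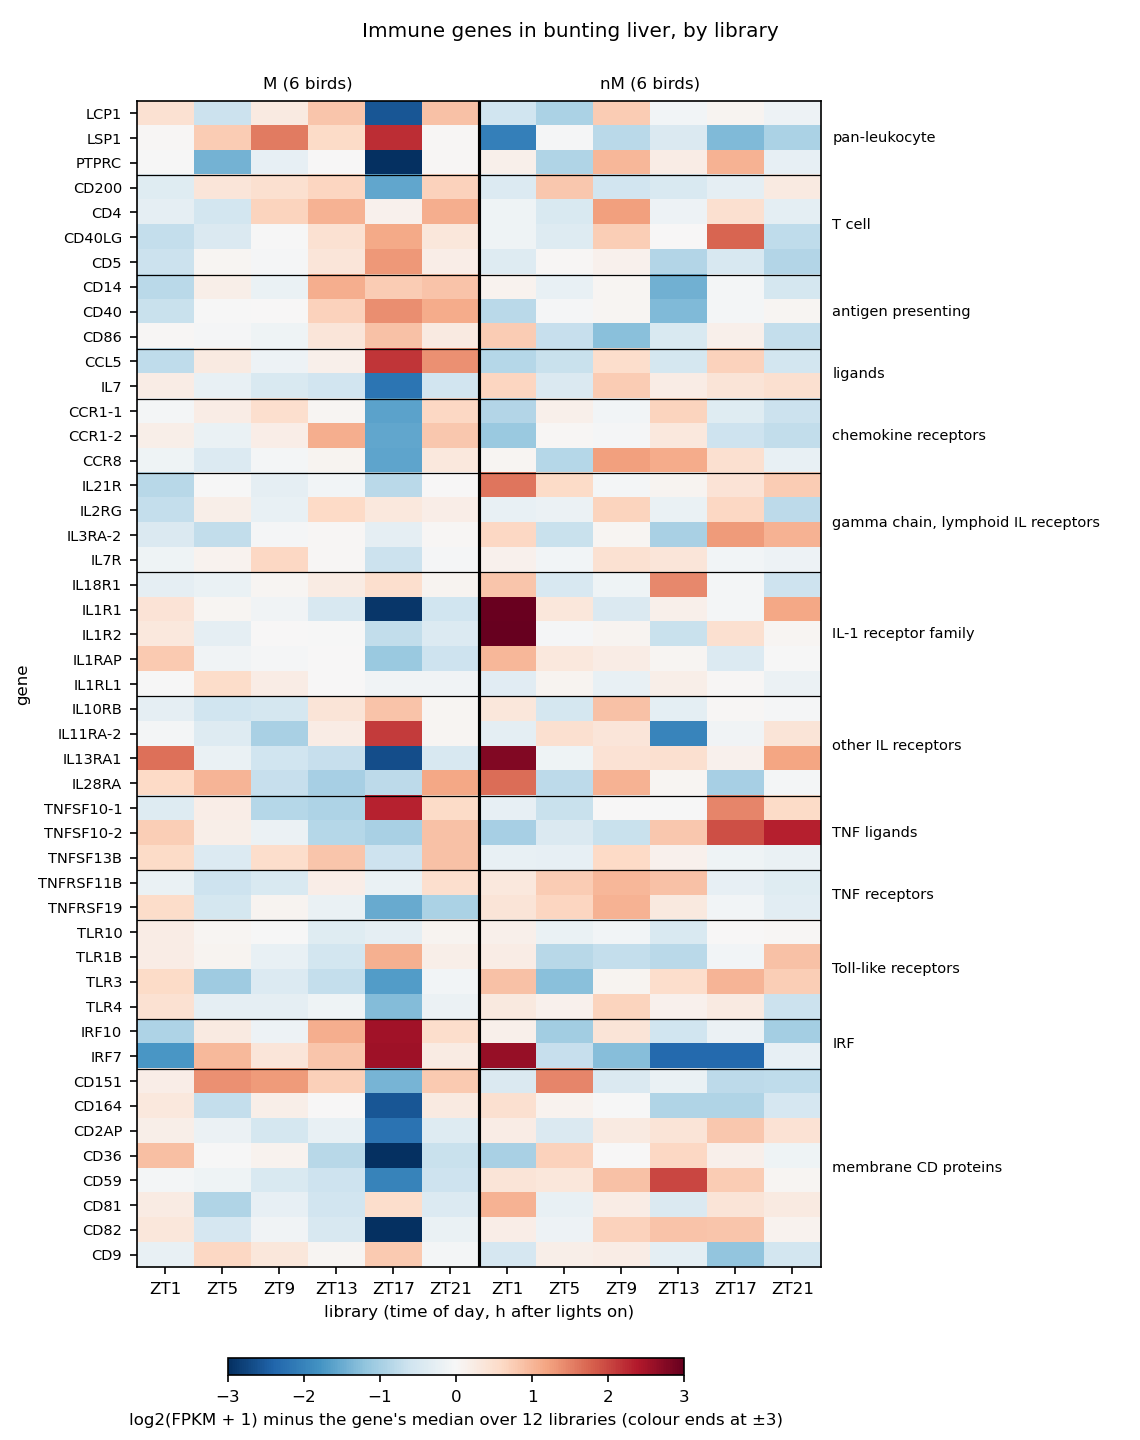
Rows are the 47 genes in groups of like function, columns are the 12 libraries by state and time of day, and colour is log2(FPKM + 1) minus the gene's median over the 12 libraries, with the scale ending at 3 in either direction. The M column of ZT17 holds most of the strong colours of both signs, and the nM column of ZT1 stands out in IL1R1, IL1R2, IL13RA1 and IRF7.

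The range among the birds of a state is given as a description, because the genes were named through a table of genes called cyclic over these same birds and so were partly chosen for it. The median ratio of the highest to the lowest of 6 birds was 7.44 in M over the genes with a lowest value above 0, against 4.41 over all genes, and 4.23 against 2.73 in nM. Without the M ZT17 library it was 2.97 in M, against 2.15, and without the nM ZT1 library it was 3.67 in nM, against 2.44. The immune genes had a lower median level than all genes tested, and how these ratios depend on the level of a gene was not tested.

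The M ZT17 library listed 7 of the 47 genes at 0, among them CCR1-1, CCR1-2, CCR8, IL7R and TLR4. It was under 1/2 of the lowest other M library in 20 genes (42.6%, against 28.6% of all genes) and over 2 times the highest in 5 (10.6%, against 20.0%). Its median deviation from the other M libraries was -0.67 on the log2 scale over the immune genes and -0.16 over all genes. Removing it turned the sign of the log2 fold change in 4 of the 47 genes and left LSP1 and CD59 as the called genes.

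The nM ZT1 library was over 3 times the highest other nM library in 4 genes, IL1R1, IL1R2, IL13RA1 and IRF7 (8.51%, against 1.33% of all genes). At over 2 times, the cut used for the M ZT17 library, there were also 4 (8.51%, against 3.24%). It was under 1/2 of the lowest other nM library in 2 genes (4.26%, against 1.54%). The same bird had the highest nM level of IL21R, IL28RA, IL1RAP, CD14, CD81, CD164, CD86 and TLR10. With the 4 genes above, that bird was highest in 12 of the 47 (25.5%, against 25.9% of all genes). It also had the highest nM level of the fibrinogen chains of the acute phase, with FGB at 26712 FPKM against at most 5174 in the other nM birds and FGG at 42162 FPKM against at most 5692. SOCS3, an inhibitor that cytokines induce, was at 76.0 FPKM there and at most at 4.998 in the other nM birds, and NFKB2, a subunit of NF-kB, was at 42.3 FPKM against at most 10.3. Not all genes that act downstream of Toll-like and TNF receptors were high in that bird. NFKBIA was at 33.2 FPKM there and at 50.6 FPKM in the nM bird of ZT17, and RIPK1, at 3.18 FPKM, was at its lowest nM level. FADD and CYLD were, like NFKB2, at their highest nM level there. All these genes outside the 47 were chosen after their values were seen. Whether FGB, FGG, SOCS3 and NFKB2 moved with the receptors for a shared reason was not tested.

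**Figure D4:**
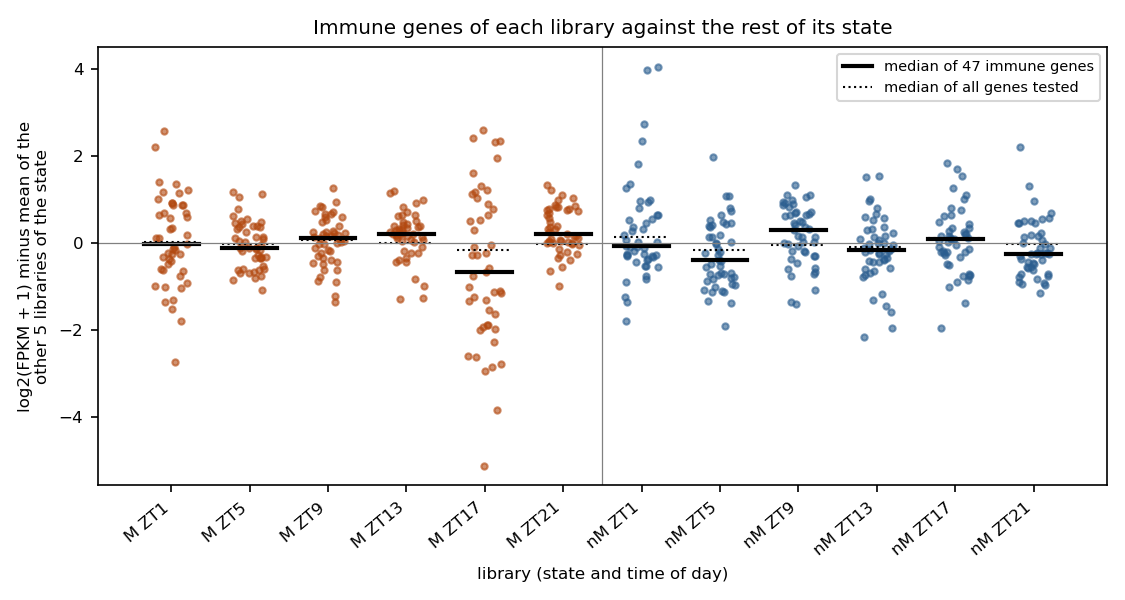
Each point is 1 of the 47 genes in 1 library, plotted as log2(FPKM + 1) minus the mean of the other 5 libraries of the same state, with solid bars for the median of the immune genes and dotted bars for that of all genes tested. The M ZT17 library has a median of -0.67, against -0.16 for all genes, and the nM ZT9 library has the highest median of the immune genes at 0.31.

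Receptor chains, kinases, STAT factors and inhibitors of cytokine signalling formed a further list. In every list the genes tested were those that the table of cyclic genes names. Some may stand in the table of state differences as well, which was not sorted out for the lists. Calls and p-values of list genes are therefore descriptions, not independent tests. The study itself names JAK2 and IL4R among genes lower in M. Of the 34 genes of the cytokine signalling list 16 were tested, 6 were lower in M and 0 were higher. Their median log2 fold change was -0.70, where 6.48% of all genes were lower and the median was -0.08. JAK2, a kinase bound to many cytokine receptors, had 1.29, 0.763, 1.34, 1.42, 0.443 and 0.695 FPKM in M and 5.38, 3.72, 5.98, 4.66, 4.40 and 5.05 FPKM in nM. The groups did not overlap, and the log2 fold change was -1.57 (SE 0.21, adjusted p = 0.00381 from limma). STAT5A was not called and stood above 0, with means of 77.7 FPKM in M and 44.7 FPKM in nM (log2 fold change 0.68, adjusted p = 0.176 from limma). PIAS4 also stood above 0 without a call (log2 fold change 0.98, adjusted p = 0.207 from limma). Both had their highest value in the M ZT17 library. CISH and SOCS2 are inhibitors that STAT5 induces. CISH had 14.4 ± 4.81 FPKM in M and 173 ± 147 FPKM in nM (SD, n = 6 each; log2 fold change -2.80, adjusted p = 0.0503 from limma), and SOCS2 had 0 to 4.69 FPKM in M and 2.18 to 15.1 FPKM in nM (log2 fold change -1.57, adjusted p = 0.0663 from limma).

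IL4R, the partner of IL13RA1, and both chains of the interferon gamma receptor made up the rest of the called genes. IL4R had 20.8 ± 13.3 FPKM in M and 94.0 ± 71.0 FPKM in nM (SD, n = 6 each; log2 fold change -2.17, adjusted p = 0.0666 from limma). IFNGR1 had 0 to 31.2 FPKM in M, the 0 at ZT17, and 22.8 to 85.5 FPKM in nM (log2 fold change -2.74, adjusted p = 0.0422 from limma), and IFNGR2 had 10.97 ± 4.38 against 34.9 ± 22.0 FPKM (SD, n = 6 each; log2 fold change -1.44, adjusted p = 0.0924 from limma). When single libraries were left out, the list's count of lower genes ranged from 1 to 7. It was 1 (JAK2) without the M ZT5 library and 7 without the M ZT1 library or the nM ZT5 library. Over all genes, 620 were lower in the main comparison. There were 171 without the M ZT5 library, 1205 without that of M ZT1 and 996 without that of nM ZT5. The list's count was 3 without the nM ZT1 library (317 over all genes) and 2 without that of ZT17 (229) or ZT21 (222). It was 4 without the M ZT17 library and the nM ZT1 library together (594). With FPKM rescaled to equal totals it was 3 (CISH, IFNGR1 and JAK2, with 115 over all genes). The same 3 were called by regression without moderation (488 over all genes). The difference between this list and the 47 genes was not tested.

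The other lists held few called genes. Among 48 genes that act downstream of Toll-like and TNF receptors, 12 were tested and CYLD, a deubiquitinase that restrains NF-kB, was lower in M (2.70 ± 1.60 against 8.95 ± 3.52 FPKM, SD, n = 6 each; log2 fold change -1.48, adjusted p = 0.0371 from limma). TRAF6, an adaptor of both receptor families, was left out of the 12 because the table of state differences alone names it, and it had 4.19 ± 2.05 FPKM in M and 9.84 ± 2.12 FPKM in nM (SD, n = 6 each). The median of the list without it was -0.18. LY96, the partner of TLR4, stood at a log2 fold change of -0.37 (adjusted p = 0.599 from limma). Among 29 genes of the interferon response 8 were tested, and SAMD9L, an antiviral gene, was lower in M (0 to 3.34 FPKM in M, the 0 at ZT17, and 4.59 to 36.0 FPKM in nM; log2 fold change -2.21, adjusted p = 0.0242 from limma). The median of these 8 was -0.09, and CYLD and SAMD9L were called whichever library was left out.

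Of 36 genes of complement and the acute phase 10 were tested, with a median log2 fold change of -0.34. LEAP2, a liver peptide, was higher in M (1144 ± 983 against 280.5 ± 129.6 FPKM, SD, n = 6 each; log2 fold change 1.84, adjusted p = 0.0483 from limma) and CD59 was lower. Without the nM ZT1 library the median of this list was 0.18, and C8A joined LEAP2 among the higher genes. LEAP2 was not called without the M ZT5 library or the nM libraries of ZT17 or ZT21. In these fits 29 to 40 of all genes were higher in M, against 272 in the main comparison. Of 30 genes of leukocyte adhesion and migration 6 were tested, and ITGAV, an integrin chain, was lower in M (log2 fold change -0.90, adjusted p = 0.0988 from limma). That call held when the M libraries of ZT1 or ZT5 or the nM ZT5 library were left out, and was lost on leaving out any of the other 9 libraries. VCAM1, the adhesion molecule that lymphocytes bind on endothelium, had 22.1 ± 12.2 and 21.3 ± 8.56 FPKM (SD, n = 6 each).

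The marker lists of single cell types gave few calls. Of 16 B cell and plasma cell markers 4 were tested, and BLNK, an adaptor of the B cell receptor that is also made in macrophages, was higher in M (37.5 ± 13.01 against 15.9 ± 8.60 FPKM, SD, n = 6 each; log2 fold change 1.25, adjusted p = 0.0529 from limma). Their summed level was 59.0 to 479 FPKM in M (median 101) and 25.6 to 195 FPKM in nM (median 81.0). The highest sums were mostly IGJ, at 399 FPKM in the M ZT17 library and 175 FPKM in the nM ZT9 library. The log2 fold change was -0.15 for IGJ, 0.77 for CD40 and 0.50 for BLK, and none of these was called. Without the M ZT5 library, or without the nM library at ZT1, ZT9, ZT17 or ZT21, BLNK was not called, nor was it at equal totals. Over all genes, 29 to 109 were higher in M without 1 of these libraries and 184 at equal totals, against 272 in the main comparison. For heterophils, the avian counterpart of neutrophils, 2 of 9 markers were tested, for erythrocytes and thrombocytes 1 of 21, for endothelium 8 of 16, for stellate and mesenchymal cells 5 of 14 and for bile duct cells 2 of 9, and 0 of these were called. PDGFRB, a growth factor receptor of stellate cells, was left out because the table of state differences alone names it, and it had 1.77 ± 0.885 FPKM in M and 4.83 ± 1.44 FPKM in nM (SD, n = 6 each). Without the M ZT1 library, where 1205 of all genes were lower, TEK of endothelium and DCN of stellate cells passed as lower. In the hepatocyte list, CEBPA, a transcription factor that myeloid cells also make, was higher in M (40.1 ± 21.8 against 15.7 ± 9.31 FPKM, SD, n = 6 each; log2 fold change 1.35, adjusted p = 0.0601 from limma), 1 of 10 tested. It was not called without the M ZT5 library or any of the nM libraries of ZT9, ZT13, ZT17 and ZT21, nor at equal totals. Without 1 of these libraries, 29 to 96 of all genes were higher in M. The summed markers of T cells were highest in the birds of ZT17, at 87.5 FPKM in M and 84.9 FPKM in nM. The M ZT17 library had the largest FPKM total, 6988410, and the sums were not rescaled for it. Of all genes, 36.5% were highest at ZT17 in M and 20.6% in nM. In M the bird of ZT13 came close (84.9 FPKM). The single markers differed. In M, CD5, CD40LG, GATA3 and TCF7 were highest at ZT17, and CD4, GZMA, IL2RG and IL7R were not. In nM, only CD40LG and GZMA were highest at that time. The summed markers of macrophages were highest in the M bird of ZT21 and the nM bird of ZT9.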

How the data were processed

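The authors isolated poly-A RNA from 12 livers and sequenced it as single-end reads. They removed ribosomal reads with Bowtie2 2.0.2, mapped what remained onto the genome of the zebra finch (STAR) and deposited FPKM per gene from Cufflinks 2.2.1. A bunting read on a finch genome maps less well where the species differ, and this can lower FPKM of fast-changing genes. The authors' log2 table was checked to hold log2(FPKM + 1), to a tolerance of 1e-06 in 134952 values, and thus no further scaling between libraries.

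Genes with FPKM above 0.1 in at least 10 of 12 libraries were compared by limma 3.58.1 (R 4.3.3) on log2(FPKM + 1), M minus nM, with Benjamini-Hochberg adjustment over 9566 genes. The fit was tested on simulated data. The pseudocount of 1 shrinks the fold change of low genes. Exact two-sided rank sum tests ran over 924 assignments.

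The gene symbols come from the study's tables of state differences and of cyclic genes, which name 4095 of the genes tested. The members and lists were chosen with earlier results of these data known. All 12 values are given for called or non-overlapping genes, for PTPRC, LCP1 and LSP1, for the 5 most abundant genes, for the 6 of largest log2 fold change and for copies of a gene. Nothing says that same-time birds were paired. The p-values rest on the spread between birds, which holds the time of day as well. The authors' own cyclic and state results were used for names alone. Alternatives were 2 other pseudocounts, 2 filters, 2 scalings, a time block, 24-h terms, 2 other fits and leaving out each library.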

Additional observations from a re-analysis of the deposited data

Results flagged for a closer look

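In 11 of 94 groups of 6 birds (11.7%, against 17.4% over all genes tested), 1 bird lay far from the other 5 on the log2(FPKM + 1) scale by Dixon's criterion at the 95% level. Chance flags about 1 group in 20. In 8 of the 11 the bird was that of ZT17 in M, which had the lowest value. These were CCR1-1 (0 FPKM), CD164 (50.8 FPKM, the next lowest 188), CD2AP (3.87 FPKM, the next 14.7), CD36 (5.50 FPKM, the next 134), CD59 (0.565 FPKM, the next 3.10), CD82 (2.05 FPKM, the next 33.8), IL1R1 (7.31 FPKM, the next 40.4) and IL7 (2.13 FPKM, the next 8.58).

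In the nM state IL1R2 was at 49.2 FPKM in the bird of ZT1, where the next highest was 3.29 FPKM. IL11RA-2 was listed at 0 in the nM bird of ZT13, the next lowest being 2.24 FPKM. CD151 was at 27.1 FPKM in the nM bird of ZT5, where the next highest was 7.92 FPKM. What set these birds apart was not tested.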

How the results depend on the processing

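CD59 was called under 17 of the 23 alternatives. LSP1 was called under all 23, which is a description only, because a table of state differences in these libraries names it. The number of immune genes higher in M was 1 to 4 when single libraries were left out, and the number lower in M 0 to 6. Over all genes, 29 to 774 were higher and 171 to 1205 lower in these fits. Each of these highest counts came without the M ZT1 library. The number of immune genes lower in M was 0 with FPKM rescaled to equal totals, where CD59 stood at -1.36 on the log2 scale (adjusted p = 0.147 from limma). At equal totals the median log2 fold change of all genes moved from -0.08 to -0.16, and 184 genes were higher and 115 lower, against 272 and 620. Same-time birds of the 2 states deviated together with correlations from 0.03 to 0.47. Of the 6 correlations, 3 were under 0.1, and 2 of the 6 were best with their own time. The main comparison held no term for time of day. With time of day as a replicate block, 9.7% of all genes and 3 of the 47 were called, and 2 were lower in M, CD59 and IL13RA1 (adjusted p = 0.0775 from limma for IL13RA1). Of 295 values of the other 13 genes given in full, 293 were not called and 2, both of IL13RA1, were. Leaving out the M ZT17 library and the nM ZT1 library together, chosen after seeing the data, left 1 gene higher and 1 lower. The stricter filter at 1 FPKM left 33 of the 47 genes. The number of reads behind each low value is not known from FPKM.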
